A study of Mus musculus with 2 samples.

Results

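Antimicrobial genes of Paneth cells were followed in single cells of intestinal co-cultures. The 10 genes, taken by name from the deposited tables, were Lyz1, Defa17, Defa21, Defa22, Defa24, Defa3, Ang4, Itln1, Mmp7 and Mptx2, of 18309 genes in either table. All 10 had rows in the tables. The co-cultures combined crypts with fibroblasts in organoid growth medium, all from C57BL6 mice of 10 weeks and from their small intestine. In the Ptger4-ON condition the co-cultures received only the vehicle DMSO and grew as spheroids. In the Ptger4-OFF condition they received ONO-AE3-208, an antagonist of the prostaglandin E2 receptor EP4 that Ptger4 encodes, at 10 µM every other day, and formed budding organoids. Each condition was 1 Drop-seq library made from a pool of 6 cultures. Mice, cultures and replicates therefore cannot be separated, no test between conditions was possible, and every interval below is a 95% interval of counting error only.

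Paneth cells sit at the base of small intestinal crypts beside the stem cells and release granules of antimicrobial proteins into the crypt lumen. Lysozyme (Lyz1) cuts the wall of bacteria, alpha-defensins (the Defa genes, called cryptdins in mice) disrupt their membranes, and matrilysin (Mmp7) is the protease that cuts mouse alpha-defensin precursors into active peptides. Ang4 is a ribonuclease of the angiogenin family with antimicrobial activity, Itln1 is a lectin that binds microbial sugars and is made by Paneth and goblet cells, and Mptx2 is a mucosal pentraxin. Wnt signals in the crypt base are known to drive Paneth cell maturation.

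The 5 alpha-defensin genes lie on the plus strand of mouse chromosome 8 (GRCm38, mm10), within 710 kb from 21025545 to 21735471. Their positions are chr8:21734494-21735471 for Defa24, chr8:21655780-21656735 for Defa17, chr8:21287409-21288377 for Defa3, chr8:21025545-21026516 for Defa21 and chr8:21162277-21163249 for Defa22. Their sequences are shown because they decide how far reads can tell the genes apart. The last 105 coding bases before the stop codon, which encode the mature peptide, are given 5′ to 3′ from the GENCODE vM21 transcripts. Capitals mark bases that differ from Defa24 when positions are compared from the last base without gaps.
Defa24: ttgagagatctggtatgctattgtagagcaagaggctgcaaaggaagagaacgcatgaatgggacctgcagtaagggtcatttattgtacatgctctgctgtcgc
Defa17: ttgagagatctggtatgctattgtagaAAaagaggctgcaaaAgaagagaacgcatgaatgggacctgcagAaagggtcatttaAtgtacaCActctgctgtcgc
Defa3: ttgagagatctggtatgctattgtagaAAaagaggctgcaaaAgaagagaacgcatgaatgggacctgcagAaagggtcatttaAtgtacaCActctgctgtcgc
Defa21: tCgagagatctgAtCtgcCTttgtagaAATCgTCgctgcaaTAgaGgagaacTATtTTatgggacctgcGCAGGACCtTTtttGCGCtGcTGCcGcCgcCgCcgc
Defa22: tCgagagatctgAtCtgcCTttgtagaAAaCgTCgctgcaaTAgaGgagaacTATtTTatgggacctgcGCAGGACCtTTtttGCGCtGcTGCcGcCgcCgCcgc
Defa17 and Defa3 were the same over all 279 coding bases, and Defa21 and Defa22 were identical at 99.3% of theirs. Defa24 shared 95.7% of coding positions with Defa17 and 80.1% with Defa21. Of all 50-base stretches of its transcript, 92.0% for Defa17, 92.2% for Defa3, 72.9% for Defa21 and 74.9% for Defa22 also occurred in the transcript of another gene, against 28.1% for Defa24. How the authors treated reads that match several genes is not given in the sources used here, so the split of counts between Defa17 and Defa3, and between Defa21 and Defa22, is uncertain. The same holds for reads shared with defensin genes outside the members. Mmp7 had no such shared stretch, Itln1 had 1.01% and Ang4 4.70%. Lyz1 shared 16.1% of its stretches with Lyz2, the lysozyme of macrophages, and Mptx2 shared 18.0% with Mptx1.

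The other genes lie at chr10:117287797-117292868 (Lyz1, minus strand), chr9:7692090-7699585 (Mmp7, plus strand), chr14:51763878-51773590 (Ang4, minus strand), chr1:171518122-171535294 (Itln1, minus strand) and chr1:173274382-173277777 (Mptx2, minus strand). The promoters at hand were searched for ATCAAAG, a core sequence bound by the TCF/LEF factors of the Wnt pathway, on both strands (CTTTGAT on the other). RefSeq promoters (GRCm38.p6, 250 bases before to 50 after the gene start) were at hand for 7 members, Lyz1, Defa21, Defa22 and Mmp7 among the genes that were lower in Ptger4-OFF by 2-fold, and Ang4, Itln1 and Mptx2. Those of Defa17, Defa24 and Defa3 were not searched. Capitals mark the motif in the 2 distinct promoters that held it, at chr8:21025295-21025594 for Defa21 and chr9:7691840-7692139 for Mmp7, both on the plus strand.
Defa21: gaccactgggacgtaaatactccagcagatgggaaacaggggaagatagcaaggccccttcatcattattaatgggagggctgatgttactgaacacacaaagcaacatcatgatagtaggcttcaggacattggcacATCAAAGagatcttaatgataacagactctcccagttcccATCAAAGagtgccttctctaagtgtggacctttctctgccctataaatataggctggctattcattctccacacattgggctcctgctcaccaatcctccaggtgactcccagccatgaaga
Mmp7: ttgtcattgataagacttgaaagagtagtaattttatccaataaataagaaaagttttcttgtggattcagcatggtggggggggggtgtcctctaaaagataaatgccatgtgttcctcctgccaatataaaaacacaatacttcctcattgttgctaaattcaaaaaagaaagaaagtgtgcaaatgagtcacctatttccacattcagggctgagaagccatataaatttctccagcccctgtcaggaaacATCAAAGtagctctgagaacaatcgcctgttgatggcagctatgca
The Defa21 promoter held the motif 112 and 72 bases before the gene start, and the Defa22 window was letter for letter the same. In Mmp7 the motif began 5 bases after the start. Among 27025 RefSeq promoters of this length, 3.72% held the motif and 0.115% held it 2 or more times. The windows of Lyz1, Ang4, Itln1 and Mptx2 did not contain these letters. A match is a string of letters and not a measured binding site.

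In Ptger4-ON 908 barcodes held 7408303 unique molecular identifiers (UMIs, tags that count captured transcripts), and in Ptger4-OFF 1599 barcodes held 9490205 UMIs. After filtering, 588 of 876 cells in Ptger4-ON and 1201 of 1560 in Ptger4-OFF were epithelial-like by their markers, with medians of 4621 and 4158 UMIs. The remaining 288 and 359 cells were fibroblast-like, with medians of 4612.5 and 4495 UMIs. Both labelled cell kinds were present: the 10 epithelial markers summed to 15935 and 13245 CPM (UMIs of a gene per 1000000 UMIs of the cells) in epithelial-like cells, and the 11 fibroblast markers to 94.0 and 106 CPM there. Leukocyte and macrophage markers summed to 14.6 and 11.7 CPM, with Lyz2 at 2 and 0 UMIs. The libraries shared 1 barcode. Epithelial-like barcodes over 50000 UMIs numbered 16 in Ptger4-ON and 6 in Ptger4-OFF and held 22.9% and 4.97% of the UMIs of their class. Of the 588 and 1201 epithelial-like barcodes, 55 and 15 were 1 base apart from a barcode with more UMIs. Some cells may therefore be counted more than once, and a larger share of them in Ptger4-ON.

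Over all epithelial-like cells the antimicrobial genes were lower in Ptger4-OFF. The 10 genes summed to 34607 UMIs (6254 CPM) in Ptger4-ON and 19901 UMIs (2617 CPM) in Ptger4-OFF, 2.39-fold higher in Ptger4-ON (interval 2.35 to 2.43). At a 2-fold limit, 7 of the 10 were lower in Ptger4-OFF, 1 was higher and 2 were within it, while of the 11613 genes with at least 20 UMIs 4.24% were lower and 2.86% higher. The median log2 ratio (OFF/ON) of the 10 was -1.50, against -0.04 over all measured genes. In sums over cells of a culture, fewer cells of a type and less RNA per cell cannot be told apart. The values per cell further on describe shares and levels but do not fully separate the 2.

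Lyz1 had 2079 UMIs (376 CPM) in Ptger4-ON and 904 UMIs (119 CPM) in Ptger4-OFF, 3.16-fold higher in Ptger4-ON (interval 2.92 to 3.42). Defa24, the most counted alpha-defensin, had 17448 UMIs (3153 CPM) and 8719 UMIs (1147 CPM), 2.75-fold higher (2.68 to 2.82). Defa17 had 2912 and 1367 UMIs, 2.93-fold higher (2.74 to 3.12). The lysozyme and the 2 most counted defensins thus stood at similar ratios. The 5 alpha-defensins together had 20680 and 10139 UMIs and were 2.80-fold higher in Ptger4-ON (2.74 to 2.87). This sum does not depend on how reads were divided among the 5. It may still depend on reads shared with other genes, since Defa17 shared stretches with 15 genes, among them Defa2, Defa20 and Defa23. Mmp7, which activates the defensin precursors, had 7521 UMIs (1359 CPM) and 3906 UMIs (514 CPM), 2.65-fold higher (2.55 to 2.75).

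Ang4 and Itln1 stood apart from these genes. Ang4 had 716 UMIs (129 CPM) in Ptger4-ON and 1031 UMIs (136 CPM) in Ptger4-OFF, a ratio OFF/ON of 1.05 whose interval, 0.952 to 1.15, includes 1. Itln1 had 3609 UMIs (652 CPM) and 3860 UMIs (508 CPM), 1.28-fold higher in Ptger4-ON (1.23 to 1.34). UMIs tag transcript ends and were not divided by length, so shares of the summed UMIs describe the tables and not numbers of transcripts. By that share the mixture moved: Defa24 made up 50.4% of member UMIs in Ptger4-ON and 43.8% in Ptger4-OFF, Itln1 10.4% and 19.4%, and Ang4 2.07% and 5.18%. There were 24.4 Defa24 UMIs for each Ang4 UMI in Ptger4-ON and 8.46 in Ptger4-OFF.

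The rarest members had the most extreme ratios, and these rested on a handful of cells. Defa21 had 125 and 17 UMIs, 10.1-fold higher in Ptger4-ON (6.06 to 17.9), and Defa22 had 142 and 33 UMIs, 5.91-fold higher (4.03 to 8.92). Of these, 3 Ptger4-ON cells held 46, 43 and 21 UMIs of Defa21 and 39, 59 and 38 of Defa22, which was 88.0% and 95.8% of the library's UMIs of the genes. The same 3 cells carried 943, 592 and 299 UMIs of Defa24, so they were strong defensin cells in general. Without the 3 richest barcodes of each library, the Defa21 ratio fell to 2.94 (1.13 to 8.54), and Defa22 had 6 and 9 UMIs, a ratio OFF/ON of 1.09 (0.347 to 3.73).

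Defa3 had 53 UMIs in Ptger4-ON and 3 in Ptger4-OFF, a ratio of 24.3 (7.87 to 121), and 2 cells held 40 and 11 of the 53. Both were among the 3 cells rich in Defa21 and Defa22, and both also had many UMIs of Defa17 (278 and 122), whose coding sequence is identical to that of Defa3. Mptx2 went the other way, with 2 UMIs in Ptger4-ON and 61 in Ptger4-OFF, but 55 of the 61 came from 1 cell. That cell, of 12929 UMIs, also held 720 UMIs of Defa24, 488 of Itln1, 217 of Ang4 and 7 of Lyz1. Without the richest barcode of each library Mptx2 had 1 and 6 UMIs, and the interval of its ratio OFF/ON, 0.526 to 199, includes 1. For Lyz1, Defa17, Defa24 and Mmp7, leaving out the richest 3 barcodes gave ratios of 2.75, 3.34, 2.96 and 2.74.

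**Figure D1:**
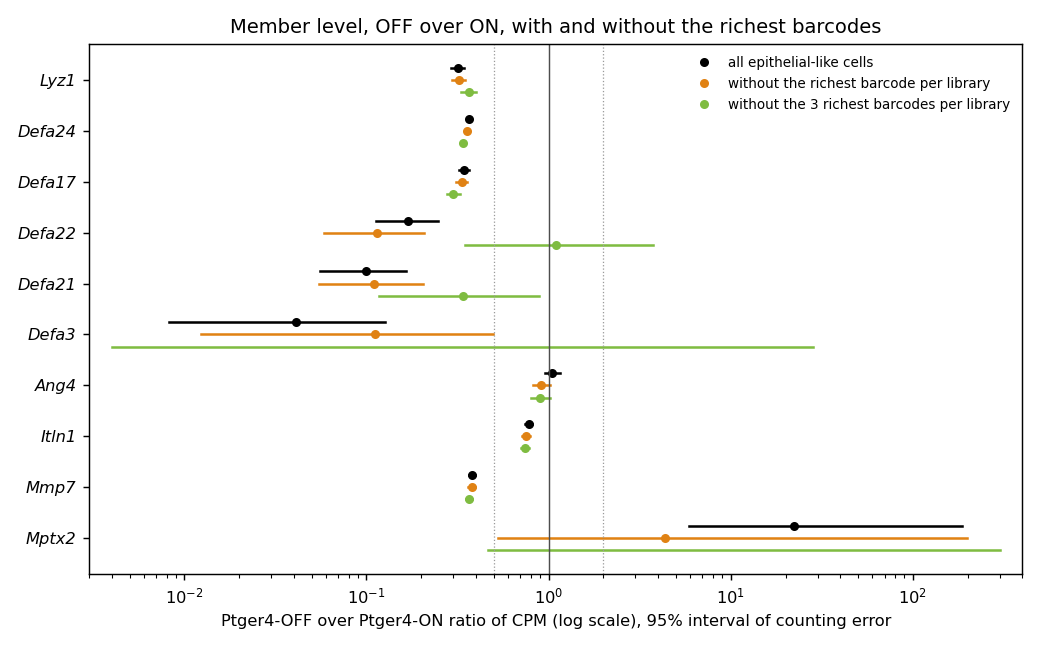
Ratio of CPM in Ptger4-OFF over Ptger4-ON (log axis) of each member in epithelial-like cells, with 95% intervals of counting error, for all cells and without the richest or the 3 richest barcodes of that gene in each library. Dotted lines mark 2-fold, intervals of Defa3 and Mptx2 that run past the axis are drawn to its limits, and a ratio of 0 or against 0 has no point. Lyz1, Defa24, Defa17 and Mmp7 stay at or below 0.378 at each setting, while Defa22 moves to 1.09 and Mptx2 to 4.33 without the richest cells.

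A UMI of a Paneth gene in a cell was no proof that the cell made it, since free RNA enters droplets. In fibroblast-like cells, which should lack these genes, 100 of 288 cells in Ptger4-ON (34.7%) and 142 of 359 in Ptger4-OFF (39.6%) had at least 1 UMI of Defa24. Among epithelial-like cells the shares were 45.2% (41.2 to 49.4) and 42.7% (39.9 to 45.6). The share of cells with any Defa24 therefore lay close to its background, and was 18.0% against 12.4% in Ptger4-OFF after each cell was thinned to 1000 UMIs (1153 epithelial-like and 348 fibroblast-like cells reached that depth). In thinned Ptger4-ON cells the shares were 21.5% of 530 epithelial-like and 10.4% of 259 fibroblast-like cells.

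Other members stood clearer of the background at the same thinned depth. Lyz1 was seen in 8.87% (6.59 to 11.6) of thinned epithelial-like cells in Ptger4-ON and 4.34% (3.24 to 5.68) in Ptger4-OFF, against 0.772% and 1.15% of fibroblast-like cells. Mmp7 was seen in 39.4% (35.2 to 43.7) and 17.6% (15.4 to 19.9), against 1.93% and 2.87%. For Itln1 the shares were 19.4% and 15.5%, for Defa17 7.74% and 3.56%, and for Ang4 6.42% and 3.90%. In fibroblast-like cells those 3 genes were seen in 2.70% and 3.16%, 1.93% and 2.01%, and 0.386% and 0.287%. At least 1 member UMI was seen in 52.3% (47.9 to 56.6) of thinned epithelial-like cells in Ptger4-ON and 39.9% (37.1 to 42.8) in Ptger4-OFF. The background of this summed share was higher, at 14.7% and 20.1% of thinned fibroblast-like cells.

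No fibroblast-like cell held more than 4 UMIs of any 1 member, so epithelial-like cells with at least 5 UMIs of a gene, a limit chosen after the data were seen, are called rich in that gene. Rich cells were rarer in Ptger4-OFF for each of the 6 well counted members. Defa24-rich cells numbered 78 (13.3% of epithelial-like cells, 10.6 to 16.3) in Ptger4-ON and 56 (4.66%, 3.54 to 6.01) in Ptger4-OFF. Lyz1-rich cells numbered 37 (6.29%, 4.47 to 8.57) and 26 (2.16%, 1.42 to 3.16). Mmp7-rich cells were the most common, with 192 (32.7%, 28.9 to 36.6) and 157 (13.1%, 11.2 to 15.1).

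Itln1-rich cells numbered 89 (15.1%, 12.3 to 18.3) in Ptger4-ON and 104 (8.66%, 7.13 to 10.4) in Ptger4-OFF. Defa17-rich cells numbered 27 (4.59%, 3.05 to 6.61) and 23 (1.92%, 1.22 to 2.86), and Ang4-rich cells 28 (4.76%, 3.19 to 6.81) and 32 (2.66%, 1.83 to 3.74). The intervals of the libraries overlap for Ang4. The share of rich cells was not computed over all genes, so these differences have no background to be set against. Cells rich in at least 1 member made up 36.1% (32.2 to 40.1) and 16.6% (14.5 to 18.8) of epithelial-like cells.

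**Figure D2:**
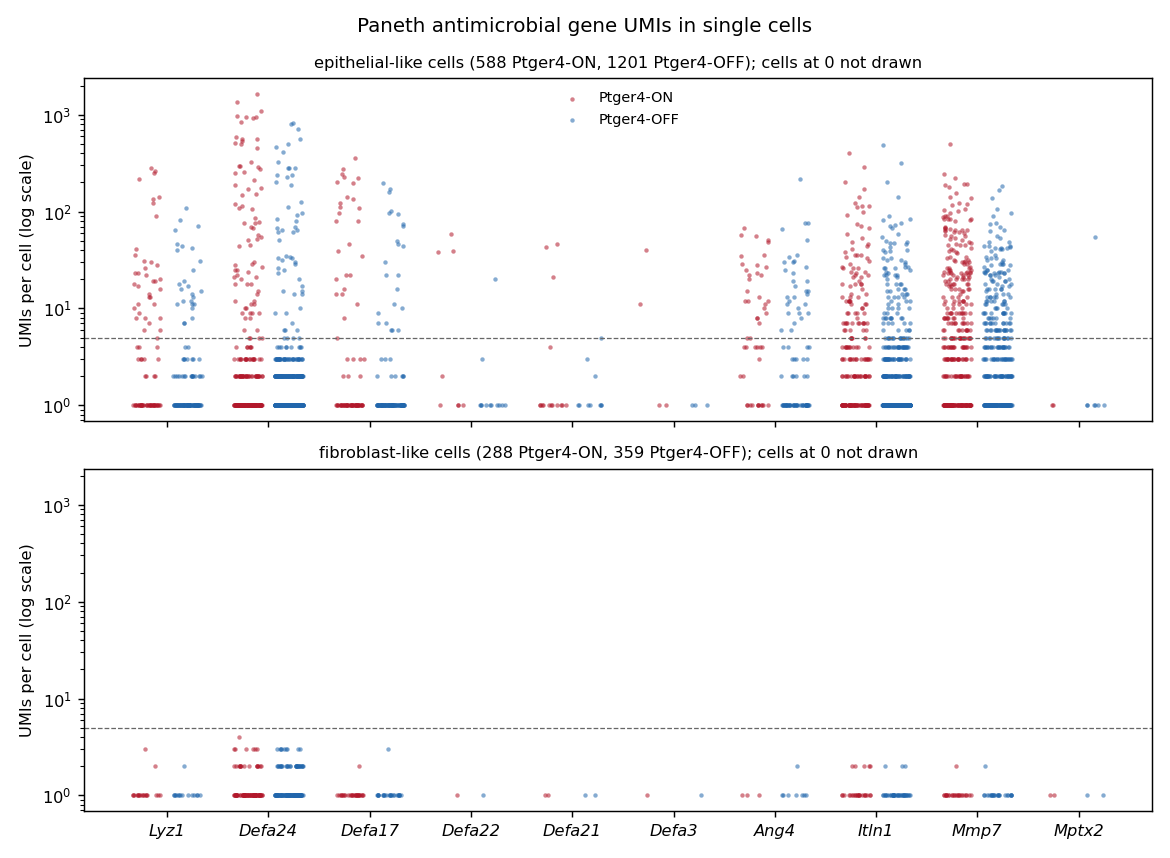
UMIs of each member per cell (log axis) in epithelial-like cells (upper panel) and fibroblast-like cells (lower panel) of Ptger4-ON (red) and Ptger4-OFF (blue), 1 point for each cell above 0, with the limit of 5 UMIs dashed. Epithelial-like cells reach 1638 UMIs of Defa24, and no fibroblast-like cell exceeds 4 UMIs of a member.

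A rich limit depends on depth, and the deepest cells were more common in Ptger4-ON. Among cells of 2000 to 20000 UMIs the Defa24-rich shares were 10.3% and 4.16%. After thinning every cell to 1000 UMIs, 10.8% and 3.30% of cells still held at least 5 UMIs of Defa24, 3.58% and 1.13% of Lyz1, and 10.8% and 3.47% of Mmp7. Ang4 was at 1.70% and 1.13% by that measure, 9 and 13 cells.

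Within rich cells the level depended on how it was measured. In Defa24-rich cells Defa24 made up 17006 CPM in Ptger4-ON and 16730 CPM in Ptger4-OFF, a ratio ON/OFF of 1.02, while the share of rich cells differed 2.84-fold. For Lyz1 the share differed 2.91-fold and the level in rich cells 1.08-fold (3369 and 3123 CPM). Defa17 had 2.40-fold and 1.15-fold in the same order, and Mmp7 2.50-fold and 1.29-fold. CPM pools the UMIs of all rich cells, so that barcodes of many UMIs weigh most. Per cell, Defa24-rich cells had a mean of 220.1 UMIs of Defa24 in Ptger4-ON and 144 in Ptger4-OFF, a ratio of 1.53, and medians of 56 and 56.5, at median depths of 4168 and 3983 UMIs. The median share of a cell's UMIs taken by Defa24 was 1.56% and 0.883%. In cells rich in the gene, this share was 0.245% and 0.194% for Mmp7. It was higher in Ptger4-OFF for Lyz1 (0.340% and 0.512%) and Defa17 (0.824% and 1.04%). The ratio of the mean UMIs in rich cells was 1.86 for Lyz1, 1.93 for Defa17 and 1.68 for Mmp7. For these 4 genes the share of rich cells differed between the libraries by more than the CPM or the mean UMIs in rich cells did.

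The same split read differently for Ang4 and Itln1. Ang4-rich cells were 1.79-fold more common in Ptger4-ON, but the gene made up 1358 CPM in them there and 2842 CPM in Ptger4-OFF. Itln1-rich cells were 1.75-fold more common in Ptger4-ON, with 2102 and 2488 CPM. Counted in UMIs rather than CPM, the mean in Ang4-rich cells was 24.1 in Ptger4-ON and 29.5 in Ptger4-OFF, and their median depths were 9702 and 5114 UMIs. In Ptger4-OFF 1 cell held 217 of the 1031 Ang4 UMIs. The mean in Itln1-rich cells was 38.1 and 32.1 UMIs. The median share of a rich cell's UMIs went against the CPM, at 0.342% and 0.313% for Ang4 and 0.193% and 0.176% for Itln1. Lyz1-rich cells had 54.2 and 29.1 UMIs of Lyz1 on average, at median depths of 8834 and 3950 UMIs.

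**Figure D3:**
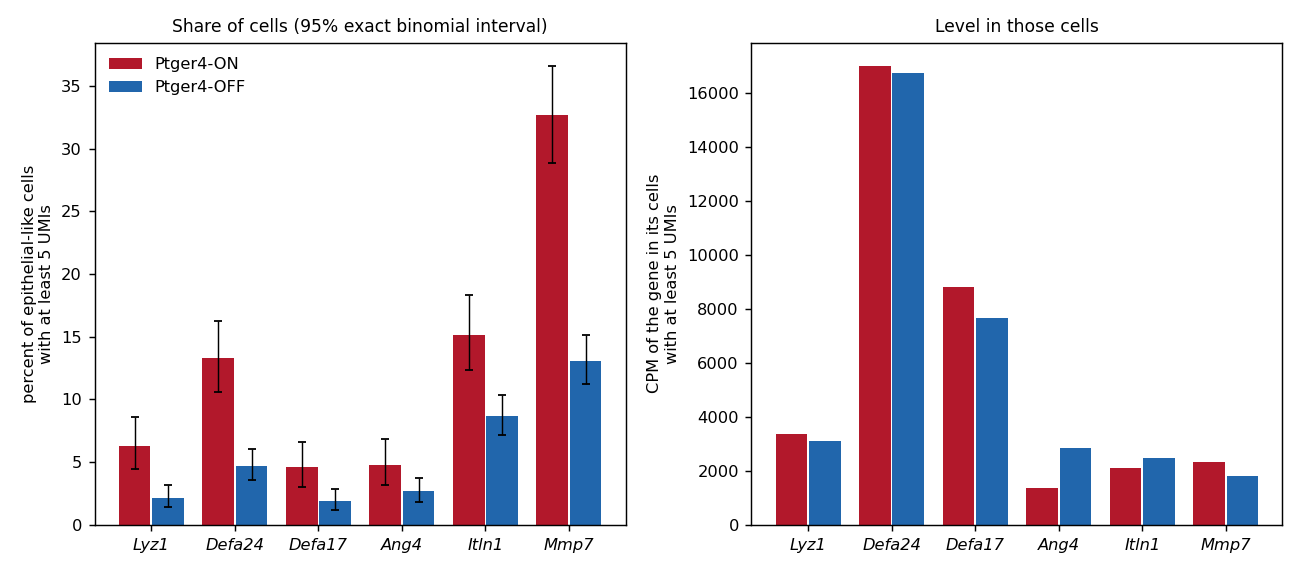
Percent of epithelial-like cells with at least 5 UMIs of each of 6 members (left, with exact binomial 95% intervals) and CPM of the gene in those cells (right, no interval drawn) in Ptger4-ON (red) and Ptger4-OFF (blue). The shares are lower in Ptger4-OFF for each gene, while the pooled CPM of Defa24 is 17006 and 16730, although its mean per rich cell is 220.1 and 144 UMIs. The pooled CPM of Ang4 is higher in Ptger4-OFF (1358 and 2842 CPM), although its median share of a rich cell's UMIs is 0.342% and 0.313%.

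Outside the rich cells Defa24 and Defa17 sat near the background and the other well counted members mostly above it. Defa24 was at 62.3 CPM in Ptger4-ON and 93.8 CPM in Ptger4-OFF in epithelial-like cells with fewer than 5 UMIs of it, against 74.0 and 103 CPM in fibroblast-like cells. Defa17 was at 12.7 and 14.7 CPM there, against 17.1 and 14.7 CPM. Mmp7 was at 119 and 66.8 CPM, against 14.8 and 13.6 CPM, and Itln1 at 55.6 and 83.0 CPM, against 18.2 and 23.4 CPM. Ang4 was at 8.34 and 11.8 CPM, against 1.71 and 4.895 CPM, and Lyz1 at 14.8 and 19.97 CPM, against 12.5 and 8.70 CPM. Epithelial-like cells below the limit thus held more Mmp7, Itln1 and Ang4 than fibroblast-like cells did in both libraries.

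UMIs were concentrated in few cells. For Defa24, 9 cells in Ptger4-ON and 8 in Ptger4-OFF held at least 50% of the UMIs of the class, and for Lyz1 5 and 7 cells did. Mmp7 was spread more widely, over 28 and 31 cells. Rich cells held 98.4% and 92.3% of Defa24 UMIs and 96.5% and 83.7% of Lyz1 UMIs. The richest Ptger4-ON cell held 1638 UMIs of Defa24 among 130922 in all, so that the members made up 2.30% of it. In a Ptger4-ON cell of 3641 UMIs they made up 46.6%, and in a Ptger4-OFF cell of 1801 UMIs 46.3%, the highest share in each library. In both of these cells the Paneth genes thus filled nearly as many UMIs as all other genes together.

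The antimicrobial genes were found together in the same cells. All 27 Defa17-rich cells in Ptger4-ON and all 23 in Ptger4-OFF were also Defa24-rich, against 9.09% and 2.80% of the other epithelial-like cells. Reads shared between these defensins may add to that overlap, and their part was not tested. Lyz1, on another chromosome, does not share transcript stretches with them: 35 of 37 Lyz1-rich cells in Ptger4-ON (94.6%, 81.8 to 99.3) and 23 of 26 in Ptger4-OFF (88.5%, 69.8 to 97.6) were Defa24-rich. Of the Ang4-rich cells, 27 of 28 and 25 of 32 were Defa24-rich.

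Mmp7 was often rich in cells that carried the other genes. All 28 and all 32 Ang4-rich cells were Mmp7-rich, as were 34 of 37 and 26 of 26 Lyz1-rich cells and 61 of 78 and 45 of 56 Defa24-rich cells. Among Itln1-rich cells 83 of 89 in Ptger4-ON and 72 of 104 in Ptger4-OFF (69.2%) were Mmp7-rich. The shares were lower in the other direction. Only 61 of 192 Mmp7-rich cells in Ptger4-ON (31.8%, 25.3 to 38.9) and 45 of 157 in Ptger4-OFF (28.7%, 21.7 to 36.4) were Defa24-rich, and 95 and 73 cells were rich in Mmp7 and in no other member. Itln1 stood between these patterns, with 50 of 89 and 37 of 104 Itln1-rich cells rich in Defa24.

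Not every Defa24-rich cell carried the other granule genes. Of 78 in Ptger4-ON, 38 were rich in neither Defa17 nor Lyz1, and of 56 in Ptger4-OFF, 26. Their medians were 18 and 16 UMIs of Defa24, while the 22 and 16 cells rich in Lyz1, Defa17 and Defa24 at once had medians of 507.5 and 282.5. These triple-rich cells made up 3.74% (2.36 to 5.61) of epithelial-like cells in Ptger4-ON and 1.33% (0.763 to 2.15) in Ptger4-OFF. At least 5 of the 10 members were rich in 22 and 23 cells, 3.74% and 1.92% of the class.

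Muc2, the gel-forming mucin of goblet cells, overlapped with the Paneth genes. Of 30 Muc2-rich cells in Ptger4-ON, 27 were Defa24-rich, 17 Lyz1-rich and 28 Mmp7-rich. In Ptger4-OFF 12 of 13 Muc2-rich cells were Defa24-rich, 7 Lyz1-rich and 13 Mmp7-rich. Read from the other side, 27 of 78 Defa24-rich cells in Ptger4-ON (34.6%, 24.2 to 46.2) and 12 of 56 in Ptger4-OFF (21.4%, 11.6 to 34.4) were Muc2-rich, against 3 of 510 and 1 of 1145 cells without rich Defa24. Of the Ang4-rich cells, 19 of 28 (67.9%, 47.6 to 84.1) and 9 of 32 (28.1%, 13.7 to 46.7) were Muc2-rich. The triple-rich cells included 15 of 22 with rich Muc2 in Ptger4-ON and 4 of 16 in Ptger4-OFF. Muc2 itself had 568 and 215 UMIs, 3.63-fold higher in Ptger4-ON (3.10 to 4.27). Defa24-rich cells had the median depths given above, and Muc2-rich cells 9290 and 8367 UMIs. With every cell thinned to 1000 UMIs, 26.3% of Defa24 cells in Ptger4-ON and 10.1% in Ptger4-OFF had Muc2, at a limit of 1 UMI for both genes, as did 42.6% and 26.0% of Lyz1 cells and 15.8% and 11.8% of Mmp7 cells.

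Clu, a marker of fetal-like and regenerating epithelium, behaved otherwise. Clu-rich cells made up 21.6% of epithelial-like cells in Ptger4-ON and 6.24% in Ptger4-OFF. Only 10 of 78 Defa24-rich cells in Ptger4-ON (12.8%, 6.32 to 22.3) were Clu-rich, against 22.9% of cells without rich Defa24, and in Ptger4-OFF 5 of 56 (8.93%, 2.96 to 19.6) against 6.11%. Lyz1-rich cells were Clu-rich in 4 of 37 and 1 of 26 cases, and Defa17-rich cells in 1 of 27 and 0 of 23, where 0 of 23 allows a share of up to 14.8% by the exact interval. Of Itln1-rich cells, 18 of 89 (20.2%) and 10 of 104 (9.62%) were Clu-rich, against 21.8% and 5.93% of the other epithelial-like cells. At a limit of 1 UMI instead, 51.5% and 18.7% of Defa24 cells had Clu, a share that includes free RNA of both genes.

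Mmp7 was the member most often found with Clu. Of Mmp7-rich cells, 51 of 192 (26.6%, 20.5 to 33.4) in Ptger4-ON and 39 of 157 (24.8%, 18.3 to 32.4) in Ptger4-OFF were Clu-rich, against 19.2% and 3.45% of the other epithelial-like cells. Seen from Clu, 51 of 127 Clu-rich cells in Ptger4-ON and 39 of 75 in Ptger4-OFF were Mmp7-rich, while 10 and 5 were Defa24-rich. Median depths were 9556 and 7403 UMIs in Mmp7-rich cells and 9544 and 6826 in Clu-rich cells, against 4621 and 4158 in all epithelial-like cells. The part of depth in this overlap was not tested. In 1 Ptger4-ON barcode of 103285 UMIs, 937 UMIs of Defa24 stood beside 129 of Clu and 157 of Mmp7, but 0 of Lyz1, Defa17 and Ang4. It was the richest Defa24 barcode without Lyz1 in either library.

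**Figure D4:**
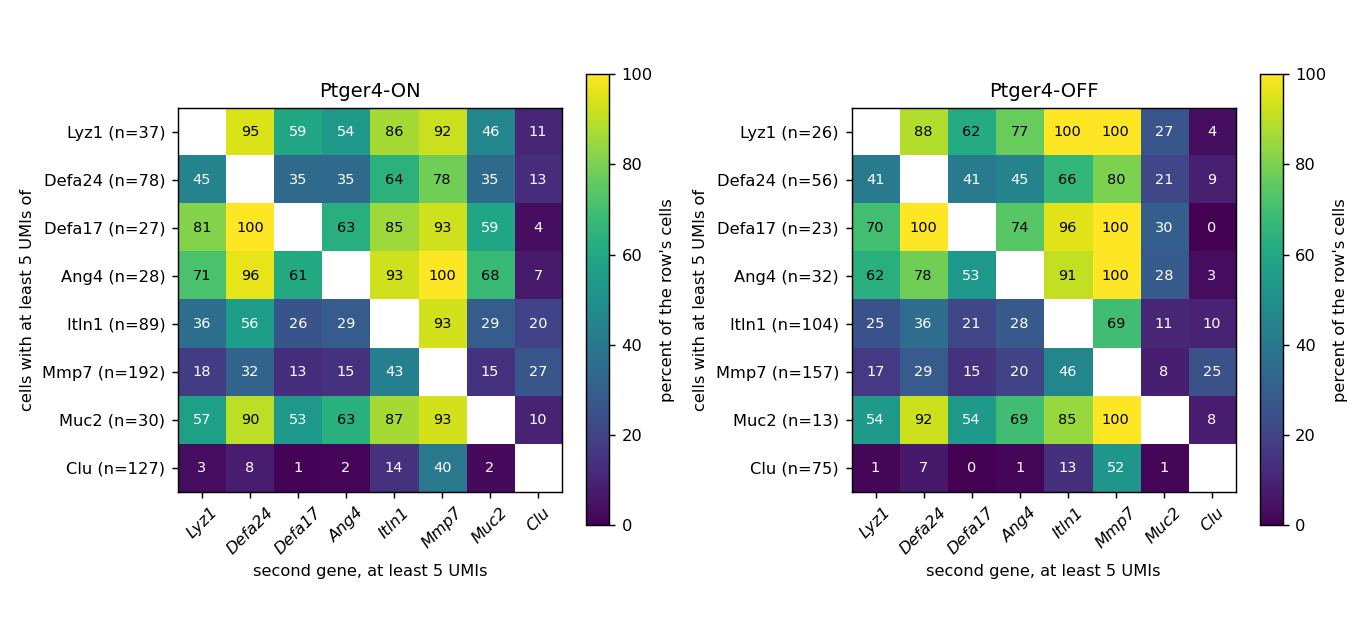
Percent of the cells rich in the row's gene (at least 5 UMIs, number of cells given) that were also rich in the column's gene, in Ptger4-ON (left) and Ptger4-OFF (right). Lyz1, Defa24, Defa17, Ang4 and Muc2 rows are high in the Defa24 and Mmp7 columns, and their Clu column stays at or below 12.8%, while 26.6% and 24.8% of Mmp7-rich cells were Clu-rich. Of Itln1-rich cells, 20.2% and 9.62% were Clu-rich.

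To see where the genes were made, epithelial-like cells were clustered again with the 10 members and every gene named Defa, Mptx, Ang or Reg3 left out. Genes with Gm names were not left out. Some of these, such as Gm14851, share transcript stretches with Defa17, and Gm15284 (1193 and 354 UMIs) was among the genes most like the members. Their part in the clusters was not tested. A cluster led by Spink4, Agr2, Reg4 and Muc2 held 68 of 588 cells in Ptger4-ON (11.6%) and 72 of 1201 in Ptger4-OFF (6.00%). Its 10 leading genes included 5 of the goblet markers and 2 of the other Paneth genes listed, Spink4 and Guca2a. The members, the genes left out and genes with Gm names were not ranked as leading genes. It held 91.2% and 85.4% of Defa24 UMIs, 94.9% and 83.6% of Lyz1 UMIs and 98.3% and 92.3% of Defa17 UMIs. It held 98.6% and 81.8% of Ang4 UMIs, 75.1% and 59.8% of Itln1 UMIs, and 45.1% and 39.9% of Mmp7 UMIs. Muc2 was not among the genes left out, so the overlap with Muc2 there follows in part from the clustering.

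Inside this cluster the ratios between conditions were smaller for Lyz1, Defa17, Defa24 and Mmp7 than over all epithelial-like cells. Lyz1 was at 3141 CPM in Ptger4-ON and 1916 CPM in Ptger4-OFF, 1.64-fold higher in Ptger4-ON (1.51 to 1.79). Defa17 was 1.42-fold higher (1.33 to 1.52), Defa24 1.34-fold (1.30 to 1.38) and Mmp7 1.36-fold (1.28 to 1.45). Ang4 and Itln1 lay in the other direction, Ang4 at 1123 and 2136 CPM, 1.90-fold higher in Ptger4-OFF (1.72 to 2.10), and Itln1 at 4315 and 5849 CPM, 1.36-fold higher in Ptger4-OFF (1.28 to 1.43). With all its barcodes counted, 4 of the 6 well counted members were thus lower and 2 higher in Ptger4-OFF inside the cluster. Single barcodes weighed on these values. In Ptger4-ON 1 barcode held 130922 of the cluster's 628464 UMIs and 402 of its 2712 Itln1 UMIs. In Ptger4-OFF 1 barcode of 12929 UMIs held 488 of 2308 Itln1 UMIs and 217 of 843 Ang4 UMIs. The cluster ratios were not computed without these barcodes, so the directions of Itln1 and Ang4 there are uncertain.

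Mmp7 was the member most widely made outside it. The cycling cluster, with 144 and 309 cells, held 27.5% and 26.2% of its UMIs, at 958 and 354 CPM, 2.71-fold higher in Ptger4-ON (2.51 to 2.92). In the cluster led by Ung, Ifitm3 and Dtl, genes that include DNA repair and replication factors, with 144 and 489 cells, Mmp7 was at 785 and 148 CPM, 5.31-fold higher in Ptger4-ON (4.58 to 6.17). The fetal-like cluster led by Msln and Clu, with 134 and 65 cells, went the other way, at 734 and 1015 CPM, 1.38-fold higher in Ptger4-OFF (1.26 to 1.52). In that cluster Defa24 was at 703 and 691 CPM, a ratio OFF/ON of 0.984 (0.883 to 1.10), from 5 rich cells in each library, and 937 of the 1120 UMIs in Ptger4-ON came from the 1 barcode without Lyz1 described above.

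Outside the Spink4-led cluster Lyz1 had 51 and 31 UMIs in cycling cells, 12 and 58 in the Ung-led cluster, and 12 and 18 in the fetal-like cluster. It had 26 and 1 UMIs in the cluster led by Zg16, 2 and 30 in that led by Alox12b, and 2 and 6 in the enterocyte cluster. Itln1 had 224 and 267 CPM in cycling cells, and 357 and 74.2 CPM in the 19 and 102 cells of the enterocyte cluster. The enterocyte values came from 73 and 55 UMIs of Itln1, with only 1 and 2 Itln1-rich cells. In the cluster led by Zg16 and Ly6a, Itln1 had 35 UMIs in 53 Ptger4-ON cells and 126 in 15 Ptger4-OFF cells, and Ang4 had 0 and 42. Only 2 of the Ptger4-OFF cells there were Ang4-rich.

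**Figure D5:**
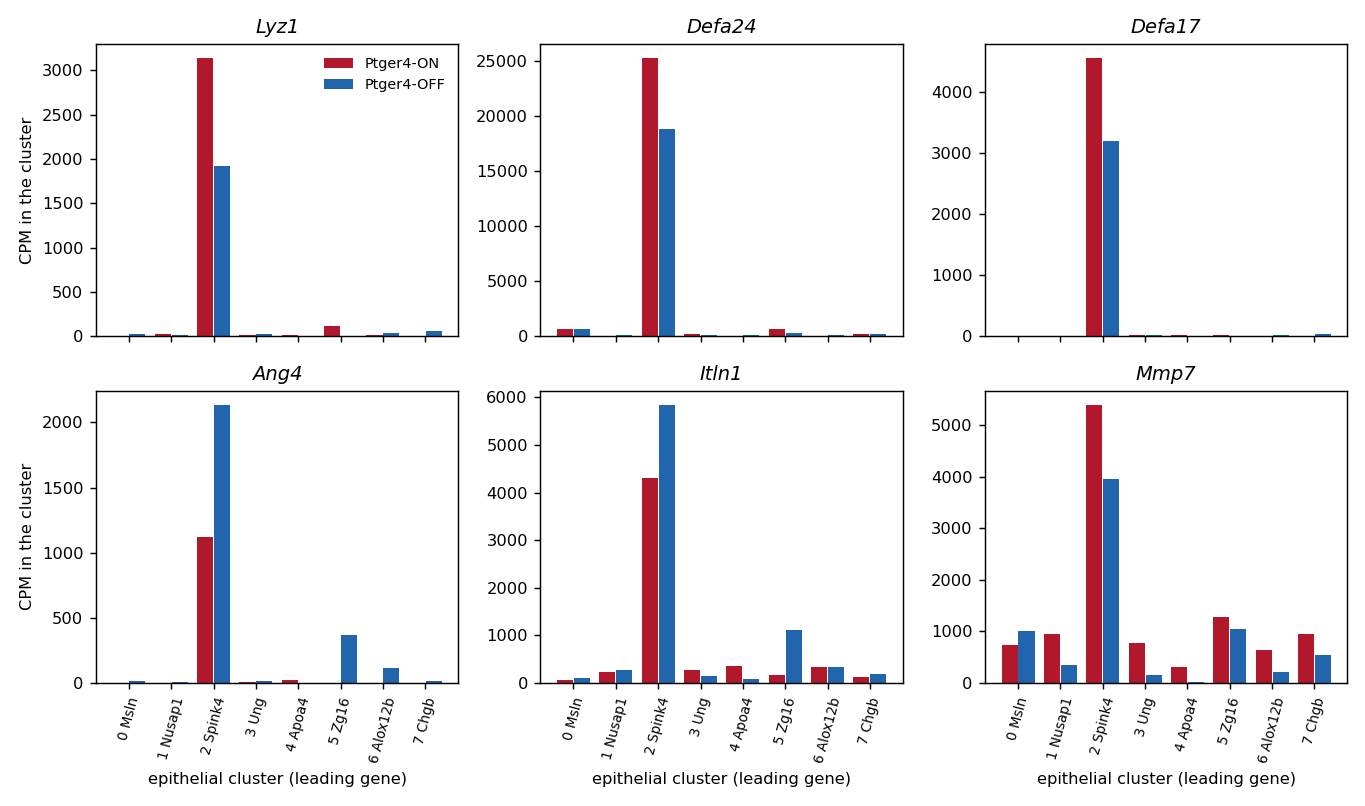
CPM of 6 members in the 8 epithelial clusters made without them, each named by its number and its leading gene, in Ptger4-ON (red) and Ptger4-OFF (blue), with no error drawn. All 6 genes peak in the cluster led by Spink4, Ang4 and Itln1 are higher there in Ptger4-OFF, and Mmp7 is seen in several other clusters.

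Among 8777 genes with at least 50 epithelial-like UMIs in each library, those most like the summed members across cells were sought by the Pearson r of log-scaled counts per 10000, ranked by the smaller r of both libraries. These r values run over 588 and 1201 cells that share a library and its free RNA, and they are given as a description. Spink4, a peptide of goblet and Paneth granules, was the closest (0.70 and 0.61), followed by Agr2, a chaperone of mucin folding (0.65 and 0.54), and Tff3, a goblet trefoil peptide (0.51 and 0.58). Fcgbp, Muc2, Guca2a, Reg3g, Gm15284, Reg4 and Wnt3 completed the first 10. Spink4 was at 1814 and 619 CPM, 2.93-fold higher in Ptger4-ON (2.83 to 3.04), and Agr2 2.56-fold higher (2.43 to 2.69). Reg4 was 7.98-fold higher (6.89 to 9.29), while Reg3g, an antimicrobial lectin, was 1.17-fold higher (1.10 to 1.23). Wnt3, the Wnt ligand that Paneth cells make, had 56 and 57 UMIs, 1.35-fold higher (0.917 to 1.99).

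Other genes of Paneth cells did not all move with the members. Of 34 further Paneth genes listed, 17 had at least 20 UMIs, of which 3 were lower in Ptger4-OFF by 2-fold and 2 higher, with a median log2 ratio of -0.43. Those lower were Spink4, the guanylin precursor Guca2a (386 and 188 CPM) and the stress gene Nupr1 (460 and 208 CPM), the last of which was higher in fibroblast-like cells at 752 and 850 CPM. Those higher were the lectin Reg3a, with 1 and 25 UMIs, and the granule zinc transporter Slc30a2, with 12 and 56 UMIs, 3.40-fold higher in Ptger4-OFF (1.80 to 6.96). Reg3b, a related lectin, had 122 and 206 CPM, 1.68-fold higher in Ptger4-OFF (1.53 to 1.84).

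Of 10 listed factors of the secretory lineages, 9 had at least 20 UMIs, 3 of them lower in Ptger4-OFF by 2-fold and 0 higher, with a median of -0.45. Atoh1, the switch gene of secretory fate, had 69 and 30 UMIs, 3.16-fold higher in Ptger4-ON (2.03 to 5.03). Spdef, a factor of goblet and Paneth maturation, had 82 and 34 UMIs, 3.31-fold higher (2.20 to 5.10), and Foxa3 was 2.12-fold higher (1.70 to 2.67). Sox9, which Paneth cells need, was at 205 and 124 CPM, 1.66-fold higher in Ptger4-ON (1.52 to 1.81). Xbp1, a factor of the secretory apparatus, was at 146 and 169 CPM and thus higher in Ptger4-OFF by 1.15-fold (1.06 to 1.26).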

How the data were processed

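The deposited tables give whole-number counts for each gene and barcode, with no normalization; that they count UMIs follows from the Drop-seq protocol in the labels. STAR 2.6 and mm10 are named in the submitters' processing notes, and for the counting tool, annotation and choice of barcodes nothing is stated in the sources used here.

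Barcodes under 300 genes or above 20% mitochondrial UMIs were dropped, as were 6 and 4 Scrublet doublets (scanpy 1.11.5). Leiden clusters (30 components, 2000 variable genes, 15 neighbours, resolution 0.5) were classed as epithelial-like or fibroblast-like by marker lists. UMIs were summed per class and library and divided by the class total. Ratios have exact conditional binomial intervals and shares exact Clopper-Pearson ones. Log2 ratios add 0.5 to each count, and 20 UMIs over both libraries were needed. The computation was tested on simulated counts. Alternatives used TMM factors of edgeR 4.0.16.

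The members and lists were chosen with earlier results of these data known. Named genes are the members, the partners Muc2 and Clu, the 10 genes most like the members, and genes of the lists. Single cells and cluster values that are singled out were chosen after they were seen.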

Additional observations from a re-analysis of the deposited data

How the results depend on the processing

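The summed level OFF/ON, 0.418, ran from 0.394 (no barcodes over 50000 UMIs) to 0.474 (Defa24 left out of the sum), and was 0.433 with TMM factors, 0.433 with median-of-ratios factors, 0.395 with equal weight for each cell, 0.434 without mixed barcodes and 0.406 without the richest barcode of each library. Between 6 and 7 members were lower by 2-fold in the 18 alternatives, and 1 was higher, except 0 without the richest barcode. These counts were not made without the 3 richest barcodes, a setting added after the data were seen. In that setting Defa22 had 6 UMIs in Ptger4-ON and 9 in Ptger4-OFF, and its log2 ratio turned to 0.0896. Defa3 had 1 and 0 UMIs there, under the minimum for a measured gene. Both genes were among the 7 lower members, so that number depends on the richest cells more than the 18 alternatives show. The thinned share with a member UMI, 52.3% and 39.9%, was 37.5% and 27.2% at 500 UMIs, 61.7% and 52.0% at 2000, 80.1% and 73.2% without thinning, 33.2% and 18.7% at 2 UMIs or more, 18.5% and 6.76% at 5 or more, and 47.1% in Ptger4-ON without barcodes over 50000 UMIs. Without thinning, 49.7% and 58.8% of fibroblast-like cells also had a member UMI. The Defa24-rich share in Ptger4-ON was 10.3% among cells of 2000 to 20000 UMIs, and 12.0% without the lesser barcodes of pairs. For single genes and pairs, 228 of 345 values moved less than their counting interval. Depth limits Defa21, Defa22, Defa3 and Mptx2, each with at most 175 UMIs in all. No paired analysis was possible because each condition had 1 library.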
